A study of Mus musculus with 12 samples.

Results

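If YAP acted on a gene as a simple dial, losing YAP and adding YAP would move that gene by equal amounts in opposite directions. To find the genes that did otherwise, the log2 effect of YAP knockdown (KD) and the log2 effect of YAP overexpression (OE) were added for each gene. This sum is 0 when the effects mirror each other, and it lies away from 0 when a gene moves in 1 experiment only, in the same direction in both, or by unequal amounts. All 12 libraries of the series entered the sum, 6 from each experiment. E14Tg2a cells, a mouse embryonic stem cell (ESC) line, were grown without feeders in serum and leukemia inhibitory factor and were transfected transiently. CTR KD cells received scrambled siRNAs and YAP KD cells a mix of siRNAs against Yap1. CTR OE cells received a plasmid that the labels describe as encoding GFP (an empty vector in the methods of the study), and YAP OE cells a plasmid with the mouse YAP cDNA behind the CAG promoter. Each of the 4 groups had 3 libraries, described as independent biological replicates. Each YAP group has its own controls, so the effects share no library. A single line was used.

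YAP is a coactivator held in check by the Hippo kinases, and it reaches DNA mainly through TEAD factors. Cyr61 and Ctgf, secreted proteins of the CCN family, are among its best known target genes. Hypoxia-inducible factors (HIFs) are a separate system: the EGLN prolyl hydroxylases mark HIF alpha subunits for destruction when oxygen is present, and when HIF persists it binds ACGTG or GCGTG motifs and raises genes for glycolysis, lactate export and mitochondrial turnover. Ndufa4l2, a mitochondrial protein that lowers respiration, is one of its most responsive targets. Culture in serum and leukemia inhibitory factor keeps ESCs proliferating on a strongly glycolytic metabolism.

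Libraries held from 42926246 to 57240706 expected counts, with 17618 to 18167 genes at 1 count or more. Replicates correlated with r from 0.997 to 0.999 across genes on the log2(CPM + 1) scale. The common biological coefficient of variation was 5.08%. The 8 ESC markers examined were abundant in all groups, with summed levels between 5115 and 5664 CPM, counts scaled to a common library size with TMM factors. In edgeR and in DESeq2 0 of the 8 were called for the sum, and 2 had an unadjusted p under 0.05. On knockdown alone edgeR called 2 of the 8 lower and 0 higher, against 4.43% and 3.95% of all genes, and on overexpression 0. Their summed level was 5412 to 5664 CPM in CTR KD and 5115 to 5460 CPM in YAP KD. It was 5319 to 5437 CPM in CTR OE and 5197 to 5578 CPM in YAP OE. The targeted gene moved as labelled in every library. Yap1 was at 116, 135 and 125 CPM in CTR KD and at 58.5, 54.9 and 56.6 CPM in YAP KD. It was at 134, 130 and 134 CPM in CTR OE and at 277, 256 and 244 CPM in YAP OE, where transcripts of the plasmid and of the gene were counted together. Yap1 thus changed by -1.15 (SE 0.0561) and 0.97 (SE 0.0543) on the log2 scale, and their sum was -0.18 (95% interval -0.35 to -0.02, edgeR adjusted p = 0.38). By this interval the loss of Yap1 mRNA was somewhat larger than the gain on the log2 scale, so each sum was also computed with the effects divided by the change of Yap1.

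Of 15049 genes tested, 183 had a sum away from 0 at an adjusted p under 0.05 in edgeR's quasi-likelihood test (1.22%), and 1706 had an unadjusted p under that threshold. The sum was positive for 118 genes (0.784%) and negative for 65 (0.432%). Of 36 HIF targets, 24 had a higher sum, and 5 of them (Ndufa4l2, Bnip3, Pgk1, Ak4 and Slc2a1) passed the test in both experiments, as did the annexins Anxa2 and Anxa3, the growth factor Igf2 and the keratin Krt8. The YAP targets Ctgf and Amotl2 and the junction genes Inadl and Bcam fell on knockdown by more than they rose on overexpression. Cyr61 and Ptges rose on overexpression, while their values did not separate on knockdown. By the calls in each experiment, 14 genes moved in the same direction in both (7.65% of the 183), 122 were called in YAP KD only (66.7%), 27 in YAP OE only (14.8%), 13 moved in opposite directions by unequal amounts (7.1%) and 7 were called for the sum alone (3.83%). The experiments did not give equal numbers of calls: 1261 genes (8.38%) were called in YAP KD, 595 higher (3.95%) and 666 lower (4.43%), against 252 (1.67%) in YAP OE, 207 higher (1.38%) and 45 lower (0.299%). A gene called in 1 experiment is not thereby shown to be unmoved in the other, and the sum is the test that its effects do not mirror each other.

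**Figure D1:**
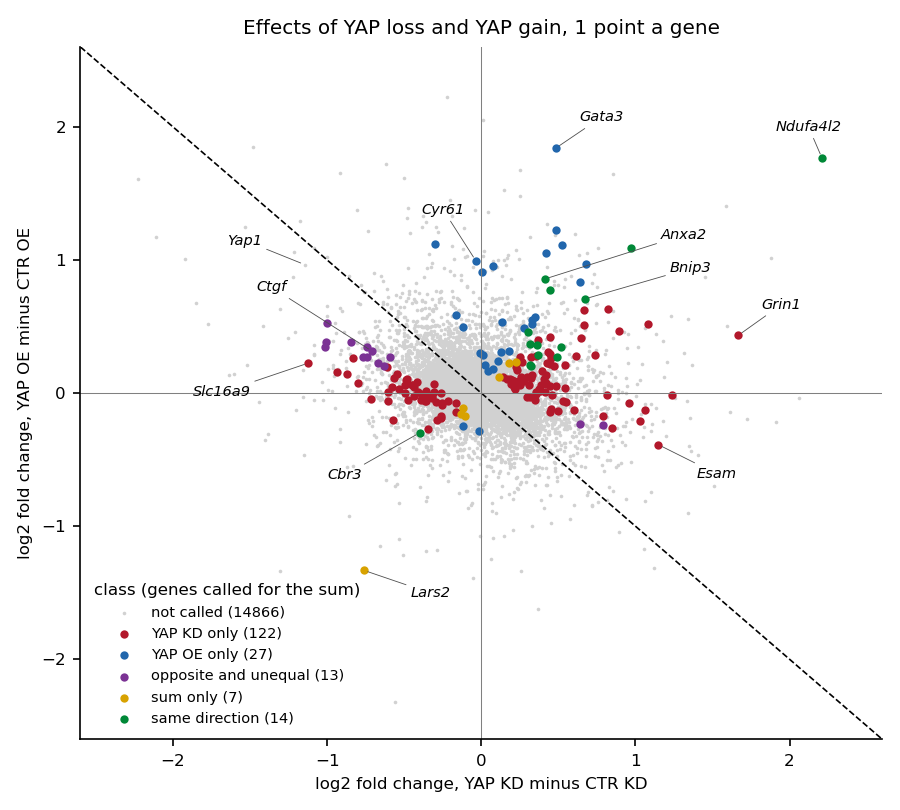
Each point is a gene, with its log2 fold change on knockdown (YAP KD minus CTR KD) on the horizontal axis and on overexpression (YAP OE minus CTR OE) on the vertical axis. The dashed line marks equal and opposite effects, colours mark the classes of the 183 genes called for the sum, and 4 uncalled genes lie outside the range drawn. Yap1 sits near the line, Cyr61 lies almost straight above 0, and Ndufa4l2 and Bnip3 lie in the upper right, where both effects are positive.

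The genes that moved 1 way in both experiments numbered 14, of which 13 rose and 1 fell. In all 14 the YAP libraries lay wholly on 1 side of their controls in both experiments, as they did for 186 of all genes (1.24%). The 14 were selected by calls in these same libraries, so this separation largely follows from the selection and is no separate support. Their median log2 fold change was 0.39 on knockdown and 0.37 on overexpression. Of the 14, 5 belong to the list of HIF targets (Ndufa4l2, Bnip3, Pgk1, Ak4 and Slc2a1). The count depended on single libraries: it was 6 without CTR OE replicate 1, without CTR OE replicate 2 or without YAP OE replicate 2, 7 without YAP OE replicate 3, and 24 without YAP OE replicate 1. The sums themselves were steadier, and each of the 14 genes stayed called for the sum whichever library was left out.

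Ndufa4l2 (chromosome 10, 127509274 to 127517154, build GRCm38) had the highest sum of the named genes. It was at 0.483, 0.415 and 0.561 CPM in CTR KD and at 1.35, 2.84 and 2.50 CPM in YAP KD. In the other experiment it was at 0.753, 0.368 and 1.00 CPM in CTR OE and at 1.55, 2.93 and 2.87 CPM in YAP OE. Groups did not overlap in either, and the replicate 1 library was the lowest of the 3 in both YAP groups. On the log2 scale it rose by 2.21 (SE 0.36, edgeR adjusted p = 0.00128) and by 1.77 (SE 0.324, adjusted p = 0.00991), and the sum was 3.98 (SE 0.485, adjusted p = 6.63e-04).

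Bnip3 (chromosome 7, 138890836 to 138909506), a receptor on mitochondria that hands them over to autophagy, showed the same shape at a higher level. Its values were 32.5, 27.4 and 37.3 CPM in CTR KD against 42.1, 58.9 and 53.6 CPM in YAP KD. They were 32.4, 33.3 and 40.7 CPM in CTR OE against 47.2, 63.6 and 63.1 CPM in YAP OE. Groups did not overlap, and the log2 fold changes of 0.67 (SE 0.139) and 0.71 (SE 0.137) were near equal. The sum was 1.38 (SE 0.195, edgeR adjusted p = 0.00202).

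Pgk1, the glycolytic enzyme phosphoglycerate kinase, rose from 494 ± 22.5 to 706 ± 67.7 CPM on knockdown and from 555 ± 43.4 to 706 ± 57.5 CPM on overexpression (mean ± SD, n = 3), a sum of 0.86 (SE 0.104). Slc2a1, the glucose transporter GLUT1, was at 194, 201 and 202 CPM in CTR KD and at 242, 262 and 244 CPM in YAP KD. It was at 214, 202 and 219 CPM in CTR OE and at 231, 249 and 250 CPM in YAP OE, so its groups were well apart on knockdown and just apart on overexpression. The sum for Slc2a1 was 0.52 (SE 0.0636). Ak4, an adenylate kinase of the mitochondrial matrix, went from 43.2 ± 1.81 to 55.8 ± 0.795 CPM and from 41.9 ± 1.39 to 51.1 ± 2.18 CPM, with a sum of 0.66 (SE 0.0619).

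Anxa2 (chromosome 9, 69453683 to 69491792), a calcium-dependent membrane binding protein, had the smallest p-value of the named genes. It was at 9.09, 8.98 and 9.36 CPM in CTR KD and at 11.8, 13.3 and 11.5 CPM in YAP KD. In the overexpression it was at 14.7, 16.1 and 15.8 CPM in controls and at 26.2, 28.5 and 29.8 CPM in YAP OE. All YAP libraries were above their controls, and the rise on overexpression (log2 fold change 0.86, SE 0.0622) was larger than that on knockdown (0.41, SE 0.0704). The sum was 1.27 (SE 0.0939, edgeR adjusted p = 1.18e-05). Anxa3, of the same family, rose by 0.30 and 0.46 on the log2 scale. Of the 10 annexins tested these 2 were called for the sum (20%, against 1.22% of all genes), none lower. The median sum of the family was 0.19.

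Igf2 (chromosome 7, 142650768 to 142666816), an imprinted fetal growth factor, was at 3.56, 4.23 and 3.43 CPM in CTR KD and at 5.15, 5.89 and 4.39 CPM in YAP KD. It was at 7.26, 6.65 and 6.82 CPM in CTR OE and at 12.3, 11.9 and 11.2 CPM in YAP OE. The margin between groups was narrow on knockdown and wide on overexpression, a rise of 0.45 (SE 0.109) against 0.77 (SE 0.0910) on the log2 scale. Its neighbour H19, a noncoding RNA of the same imprinted domain, was low, at 0.581 ± 0.190 and 0.929 ± 0.118 CPM on knockdown and 0.671 ± 0.0264 and 1.33 ± 0.217 CPM on overexpression, with a sum of 1.65 (SE 0.3, edgeR adjusted p = 0.0106). H19 was called in YAP OE only (log2 fold change 0.97) and its knockdown value of 0.68 did not pass (edgeR adjusted p = 0.0744). Of 42 imprinted genes tested, a list drawn up after values had been seen, 6 were called for a higher sum (Igf2, H19, Cdkn1c, Peg3, Peg10 and Sfmbt2) and 1 for a lower (Phlda2). Over the list 16.7% were called, against 1.22% of all genes. The called genes did not share 1 pattern. Cdkn1c, Sfmbt2 and Peg3 (with counts not whole in 4 libraries) rose on knockdown (0.42, 0.42 and 0.22) with values of 0.13, 0.06 and 0.03 on overexpression, while Peg10 rose on overexpression (0.50) with -0.12 on knockdown. The call of Peg10 was lost without CTR KD replicate 1, YAP KD replicate 1 or 2, YAP OE replicate 1 or 2, or any 1 of the CTR OE libraries, its sum ranging from 0.34 to 0.43. That of Phlda2 (sum -0.28) was lost without CTR KD replicate 3, YAP KD replicate 2 or 3, CTR OE replicate 1 or 2, or YAP OE replicate 1 (-0.30 to -0.26).

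Krt8, a keratin of simple epithelia, rose by 0.36 on the log2 scale in both experiments, from 34.4 ± 2.28 to 44.3 ± 0.426 CPM and from 54.7 ± 2.36 to 70.3 ± 6.29 CPM. Its partner Krt18 was called in YAP OE only (0.53, with 0.13 on knockdown). Id2, an inhibitor of helix-loop-helix factors, rose by 0.49 and 0.27, and A2m, the protease inhibitor alpha-2-macroglobulin, by 0.97 (SE 0.256) and 1.09 (SE 0.237) from levels of 1.44 ± 0.255 and 1.69 ± 0.344 CPM. Plekha2, which binds phosphoinositides through pleckstrin homology domains, rose by 0.32 and 0.37. Rpl39l, named after its values had been seen, completes the 13 with 0.32 and 0.21.

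Cbr3, a carbonyl reductase controlled by NRF2, was the 1 gene that fell in both experiments. It was at 17.2, 17.8 and 17.4 CPM in CTR KD and at 13.7, 12.9 and 13.2 CPM in YAP KD. It was at 13.3, 13.6 and 13.1 CPM in CTR OE and at 10.7, 10.6 and 11.2 CPM in YAP OE. Groups were apart in both, and the sum was -0.70 (SE 0.0687, edgeR adjusted p = 1.99e-04). Among 15 NRF2 target genes tested, Nqo1, a quinone reductase, was the other one called for the sum (-0.61, SE 0.107). Nqo1 fell by 0.34 on knockdown, and its value of -0.27 on overexpression did not pass. The list as a whole had a median sum of -0.09, and 13 of its genes were not called. The 2 calls were 13.3% of the list, against 1.22% of all genes.

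**Figure D2:**
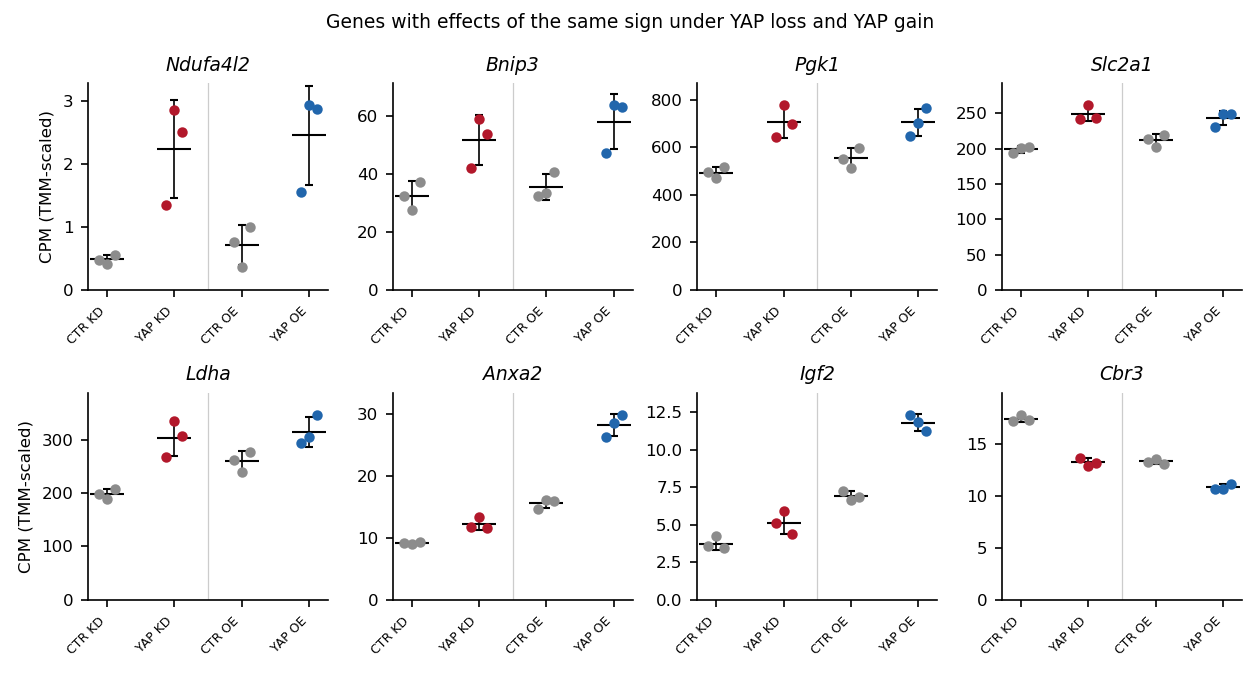
Points are the TMM-scaled CPM of single libraries by group for 8 genes, with the mean and SD of 3 libraries; axes start at 0 and a grey line parts the experiments. In each panel both YAP groups sit on the same side of their own controls; for Ldha the rise on overexpression was not called.

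The HIF targets were the gene list with the most calls for the sum. Like the other lists, it was chosen with earlier results of these data known. Its share of calls is therefore a description and not an independent test. All 36 genes of the list were tested, and 24 of them (66.7%) had a positive sum that passed, against 0.784% of all genes. None had a negative sum that passed. The median sum of the list was 0.44, against -0.0002 over all genes. The list's median log2 fold change was 0.26 on knockdown and 0.20 on overexpression. On knockdown 22 genes were called higher and 1 lower, against 3.95% and 4.43% of all genes. On overexpression 6 were called higher and none lower, against 1.38% and 0.299% of all genes. Both effects were positive in 30 of the 36 genes, as in 2943 of the 15049 genes tested, and both were negative in 1. The YAP libraries lay wholly above their controls in both experiments for 18 of the 36 (0.831% of all genes), on knockdown for 26 (12.5% of all genes) and on overexpression for 19 (10.3% of all genes). Measured per library against the mean of its own controls, the list's median was 0.20, 0.30 and 0.28 on the log2 scale in the 3 YAP KD libraries and 0.10, 0.22 and 0.21 in the 3 YAP OE libraries. The 6 control libraries were between -0.06 and 0.04. Every YAP library was thus above every control library. The order of the replicates was the same in both experiments, with replicate 2 lowest and 3 highest among controls and replicate 1 lowest and 2 highest among YAP libraries.

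The metabolic steps covered by these genes run from glucose entry to lactate export. After Slc2a1, the called enzymes were Gpi1, Pfkl, Pfkp, the phosphofructokinase regulator Pfkfb3, the aldolases Aldoa and Aldoc, Tpi1, Pgk1, Pgam1 and Ldha. Ldha, which turns pyruvate into lactate, was at 198, 189 and 209 CPM in CTR KD and at 268, 336 and 307 CPM in YAP KD. It was at 261, 240 and 278 CPM in CTR OE and at 294, 304 and 347 CPM in YAP OE. Groups were far apart on knockdown (log2 fold change 0.61, SE 0.0787) and just apart on overexpression (0.28, SE 0.0782, edgeR adjusted p = 0.0976, not called), with a sum of 0.89 (SE 0.111). Slc16a3, the lactate exporter MCT4, was at 15.5 ± 1.52 and 28.9 ± 4.34 CPM on knockdown and 22.7 ± 3.26 and 31.4 ± 3.81 CPM on overexpression. Its sum was 1.36 (SE 0.168, edgeR adjusted p = 7.24e-04), with the overexpression value of 0.47 just short of a call (adjusted p = 0.0589). Tpi1 and Pfkl had sums of 0.76 and 0.66. The glycolytic genes Hk1, Hk2, Gapdh, Eno1 and Pfkfb4 were not called for the sum, with values between 0.03 and 0.13.

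Of the genes that act on mitochondria, Pdk1, which blocks pyruvate entry, Bnip3l, a mitophagy receptor, and Higd1a had sums of 0.26, 0.26 and 0.37 beside the larger ones of Ndufa4l2 and Bnip3. Egln3, an EGLN hydroxylase that is itself a HIF target, was at 6.06 ± 0.813 and 10.7 ± 1.97 CPM on knockdown and 5.35 ± 0.976 and 8.32 ± 1.58 CPM on overexpression. Its sum was 1.46 (SE 0.230, edgeR adjusted p = 0.00447). Egln1 was called for the sum alone, with 0.22 and 0.23. P4ha1, a collagen prolyl hydroxylase, Ero1l, an oxidoreductase of protein folding, and Ddit4, an inhibitor of mTORC1, had sums of 0.71, 0.42 and 0.77. The other 12 members were not called for the sum, although both effects were positive in 6 of them. Slc2a3, another glucose transporter, fell by 0.19 on knockdown and had a value of 0.16 on overexpression, Kdm3a had 0.14 and -0.12, and Car9 and Mxi1 had sums of -0.12 and -0.04. Vegfa and P4ha2 had sums of 0.23 and 0.18, and Adm, at under 0.5 CPM in all libraries, one of 1.00 with an SE of 0.359. A list of 9 further genes that encode or control HIF was drawn up after values had been seen. Of these 9, 0 were called for the sum in edgeR or DESeq2 and 0 had an unadjusted p under 0.05 (Hif1a 0.07 and -0.04, Vhl 0.01 and 0.10). Egln1 and Egln3 also control HIF and were called for the sum, but they were counted among the targets. Over all genes 1.22% were called for the sum, so 0 of 9 lies near that share.

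The calls of 15 HIF targets held whichever library was left out: Ndufa4l2, Egln3, Bnip3, P4ha1, Ero1l, Ak4, Higd1a, Slc2a1, Pfkl, Aldoa, Tpi1, Pgk1, Pgam1, Ldha and Slc16a3. The other 9 (Egln1, Ankrd37, Bnip3l, Pdk1, Ddit4, Gpi1, Pfkp, Pfkfb3 and Aldoc) lost their calls without YAP KD replicate 2, which left 15, and likewise without CTR OE replicate 2. Leaving out any other library left between 16 and 23. The 6 calls on overexpression alone fell to 1 without CTR OE replicate 1, CTR OE replicate 2, YAP OE replicate 2 or YAP OE replicate 3, and became 10 without YAP OE replicate 1. The sign did not turn: over all alternatives and left-out libraries the median sum of the list lay between 0.41 and 0.49, and no HIF target was called lower. Pfkp had counts that were not whole in all libraries and Aldoa in 3, which marks reads divided between genes. Bnip3l and Pdk1 also lost their calls under total counts, with small RNAs removed, with effective length as an offset and with the effects divided by the change of Yap1. In RNA from whole cultures, more cells with raised levels and more RNA per cell cannot be told apart.

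**Figure D3:**
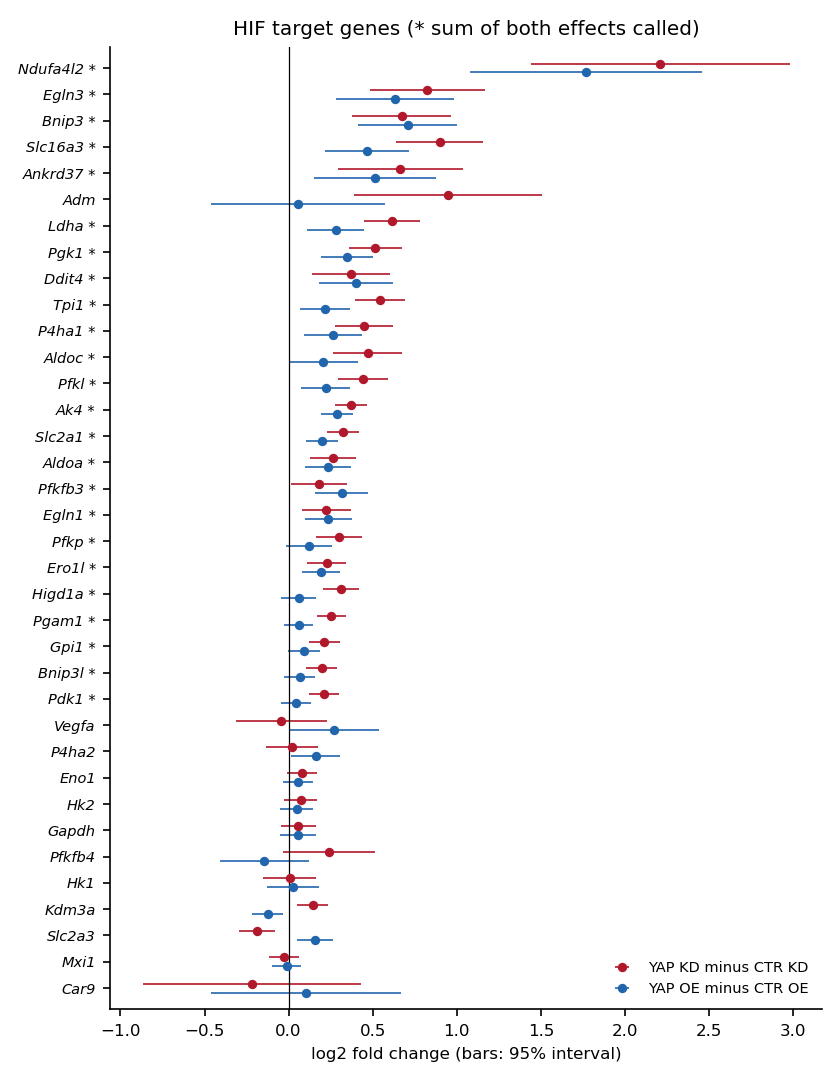
For each of the 36 HIF targets the points give the log2 fold change on knockdown and on overexpression, with bars for the 95% interval from the fit over 12 libraries and an asterisk where the sum was called. Both points lie right of 0 for 30 genes and left of 0 for 1. The rest, Slc2a3 and Kdm3a among them, have points on both sides.

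Because this list held the most called sums, promoters of called members that hold ACGTG, a form of the HIF motif, are shown. The other form, GCGTG, was not searched. RefSeq promoters of GRCm38.p6 were searched over the 250 bases before each start for ACGTG on both strands, so that CACGT counts as a match and CACGTG matches on both strands. A gene with several starts was counted as holding the motif when the window of any start matched. Of 33 HIF targets with a promoter in the table, 20 held ACGTG (60.6%). The share was 24.5% over 11877 tested genes with a promoter and 16.6% over all windows of the table. It was 68.2% of 22 called HIF targets and 45.5% of 11 uncalled ones. Among the 66 other genes with a higher sum and a promoter it was 28.8%. A match describes letters only, not binding. A matching stretch of members that reach from glucose uptake to lactate export and mitophagy is printed 5′ to 3′ on the gene's strand, with the matches in capitals.
Slc2a1 promoter, chr4:119108671-119108744, plus strand: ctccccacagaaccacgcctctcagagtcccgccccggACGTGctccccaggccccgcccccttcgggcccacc
Pgk1 promoter, chrX:106186912-106186992, plus strand: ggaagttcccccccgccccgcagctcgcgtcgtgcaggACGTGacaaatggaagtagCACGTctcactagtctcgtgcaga
Ldha promoter, chr7:46845621-46845701, plus strand: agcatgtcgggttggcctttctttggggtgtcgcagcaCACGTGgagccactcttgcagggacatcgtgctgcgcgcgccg
Slc16a3 promoter, chr11:120949002-120949066, plus strand: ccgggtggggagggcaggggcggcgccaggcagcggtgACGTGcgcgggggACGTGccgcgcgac
Ak4 promoter, chr4:101419453-101419533, plus strand: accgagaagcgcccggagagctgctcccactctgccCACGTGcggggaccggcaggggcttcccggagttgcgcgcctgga
Bnip3 promoter, chr7:138909572-138909652, minus strand: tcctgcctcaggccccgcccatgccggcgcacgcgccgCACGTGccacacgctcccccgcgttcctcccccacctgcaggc
Egln3 promoter, chr12:54204044-54204124, minus strand: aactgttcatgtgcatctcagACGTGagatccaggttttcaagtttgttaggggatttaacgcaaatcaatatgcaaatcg
Pgk1 and Slc16a3 show the motif repeated within the stretch, and Ldha, Ak4 and Bnip3 show it as the palindrome CACGTG. The Ldha window held 5 matches, with CACGTG counted on each strand, and not all of them lie in the printed stretch. Ldha and Ak4 also had windows without ACGTG at other starts, and the stretch printed is from a start with a match. Tpi1, Pfkl and Higd1a had a promoter in the table without ACGTG in the window and were called all the same.

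A minority of the YAP targets broke the mirror, in both directions. Of 21 YAP/TEAD target genes tested, 4 were called for the sum (19%, against 1.22% of all genes): Cyr61 higher, and Ctgf, Amotl2 and Ajuba lower. On knockdown 6 of the 21 were called lower and 1 higher, against 4.43% and 3.95% of all genes. On overexpression 5 were called higher and none lower, against 1.38% and 0.299% of all genes. The medians were -0.08 and 0.16. Cyr61 (chromosome 3, 145646971 to 145649985; Ccn1 in RefSeq) was at 4.92, 7.38 and 6.77 CPM in CTR KD and at 6.10, 6.73 and 5.88 CPM in YAP KD. It was at 8.69, 8.04 and 8.36 CPM in CTR OE and at 15.6, 18.1 and 16.5 CPM in YAP OE. The knockdown groups overlapped while the overexpression groups were far apart. The log2 fold change was -0.04 (95% interval -0.29 to 0.21) on knockdown and 1.00 (SE 0.102) on overexpression, and the sum was 0.96 (SE 0.156, edgeR adjusted p = 0.00539). The interval leaves room for a small fall on knockdown, but not for one that mirrors the rise.

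Ctgf (chromosome 10, 24595442 to 24598683; Ccn2 in RefSeq) was at 24.2, 24.4 and 22.4 CPM in CTR KD and at 15, 14.8 and 13.7 CPM in YAP KD. It was at 23.2, 24.4 and 25.2 CPM in CTR OE and at 29.9, 30.8 and 29.9 CPM in YAP OE. Groups were apart in both experiments, with a fall of 0.71 (SE 0.0523) that exceeded the rise of 0.31 (SE 0.0489), and the sum was -0.39 (SE 0.0716, edgeR adjusted p = 0.0107). Amotl2, an angiomotin that binds YAP and is also its target, fell by 0.74 and rose by 0.35. Ajuba, a LIM protein that restrains the Hippo kinase LATS, fell from 135 ± 8.58 to 99.6 ± 4.41 CPM on knockdown and had 166 ± 1.63 and 173 ± 5.69 CPM on overexpression (log2 fold change 0.06, 95% interval -0.04 to 0.16). Dividing each effect by the change of Yap1 ended the calls of Ctgf (edgeR adjusted p = 0.0586) and Amotl2 (adjusted p = 0.0649) and kept those of Cyr61 and Ajuba. Of 16 genes of the Hippo pathway, Yap1 included, 0 were called for the sum in edgeR or DESeq2, and 3 had an unadjusted p under 0.05. With 1.22% of all genes called for the sum, 0 of 16 lies near that share.

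Promoters of these targets were searched for GGAATG, the TEAD core, on both strands, so that CATTCC counts as a match. The motif was in 13.0% of tested genes with a promoter and in 12.6% of all windows. It was in 23.9% of 138 genes with a called sum and a promoter. Ctgf has no entry in the promoter table used here, so its promoter was not searched. The stretches of the 3 genes with a match are printed as above, since Cyr61 and the other 2 moved in different ways.
Cyr61 promoter, chr3:145650045-145650126, minus strand: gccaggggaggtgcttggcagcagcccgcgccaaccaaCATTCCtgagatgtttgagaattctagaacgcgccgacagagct
Amotl2 promoter, chr9:102717701-102717782, plus strand: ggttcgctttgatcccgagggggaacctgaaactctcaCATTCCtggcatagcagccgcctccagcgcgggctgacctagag
Ajuba promoter, chr14:54577804-54577885, minus strand: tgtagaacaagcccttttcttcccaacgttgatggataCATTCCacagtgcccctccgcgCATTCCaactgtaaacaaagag
The same letters stand before Cyr61, called on overexpression only, Amotl2, called in both experiments, and Ajuba, called on knockdown only.

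Genes called in YAP KD only numbered 122, 75 with a positive and 47 with a negative sum. For 76 of them the 95% interval of the overexpression effect lay within a fold change of 1.2 either way, so that a larger response to overexpression is outside that interval. The overexpression value had the same sign as the knockdown in 80 and the opposite sign in 42. Selection on a called sum favours effects of the same sign, so this split is no separate evidence of a shared direction. The class held 80 genes without YAP KD replicate 2. The largest fall among the named genes was that of Slc16a9, a carnitine and monocarboxylate transporter, at 7.2, 7.45 and 7.54 CPM in CTR KD against 3.75, 3.19 and 3.28 CPM in YAP KD. It was at 5.46, 4.77 and 5.14 CPM in CTR OE and at 5.81, 5.54 and 6.57 CPM in YAP OE, where the groups were apart by a little and the log2 fold change was 0.22 (SE 0.0847, not called). The sum was -0.90 (SE 0.124, edgeR adjusted p = 0.00173). Scrn1, a secernin, fell from 9.77 ± 0.0523 to 5.12 ± 0.110 CPM on knockdown and was at 9.47 ± 0.265 and 10.6 ± 0.406 CPM on overexpression. Cd55, which protects cells from complement, fell by 0.83 on the log2 scale with 0.26 on overexpression (edgeR adjusted p = 0.0514), and its counts were not whole in 5 libraries. Cd59a, of the same function, fell by 0.80 with a value of 0.08. Its call was lost without CTR KD replicate 3, CTR OE replicate 2 or 3, or YAP OE replicate 2 or 3, with sums from -0.80 to -0.62.

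Among those higher on knockdown only, Aurkc, an Aurora kinase of meiosis and early embryos, went from 4.22 ± 0.151 to 8.82 ± 0.398 CPM and was at 4.14 ± 0.0513 and 3.75 ± 0.840 CPM on overexpression, with a sum of 0.94 (SE 0.161, edgeR adjusted p = 0.00763). Grin1, a subunit of NMDA receptors, rose by 1.67 (SE 0.167) on knockdown with 0.43 on overexpression, but its counts were not whole in any of the 12 libraries, so its reads were partly shared with other genes and its value is uncertain. Esam, an adhesion molecule of tight junctions, rose by 1.15 and had -0.39 on overexpression (edgeR adjusted p = 0.0976), with a sum of 0.76. The call for the sum of Esam was lost in DESeq2, with the effects divided by the change of Yap1, and without CTR KD replicate 1 or 3, YAP KD replicate 3, CTR OE replicate 2 or YAP OE replicate 3 (0.71 to 0.82). The median absolute effect of the 183 genes was 0.41 on knockdown and 0.17 on overexpression.

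Genes called in YAP OE only numbered 27, of which 25 rose and 2 fell. The knockdown value had the same sign in 22 of them, and for 9 its 95% interval lay within a fold change of 1.2. Here too the selection on a called sum favours the same sign. This class rested on single libraries: it held 10 to 17 genes without CTR KD replicate 3 (17), YAP KD replicate 2 (14), any 1 of the CTR OE libraries (11, 11 and 16), YAP OE replicate 2 (10) or YAP OE replicate 3 (13). Ptges, which makes prostaglandin E, was at 1.93, 2.17 and 2.33 CPM in CTR KD and at 2.37, 2.50 and 1.94 CPM in YAP KD. It was at 1.97, 2.03 and 2.63 CPM in CTR OE and at 3.81, 4.53 and 4.53 CPM in YAP OE, so that only the overexpression groups were apart. Its log2 fold changes were 0.07 (95% interval -0.23 to 0.38) and 0.95 (SE 0.129), with a sum of 1.03 (SE 0.194, edgeR adjusted p = 0.0132) that lost its call without YAP KD replicate 2, within a range of 0.95 to 1.18 over the left-out libraries. Ly6a, the surface antigen Sca-1, rose by 1.05 (SE 0.167) with 0.42 (SE 0.191) on knockdown, where its groups were also apart, and 3830417A13Rik rose by 1.22 with 0.49. Gstt2, a glutathione transferase, was the larger fall, at 25.1 to 27.5 CPM in CTR OE and 20.4 to 22.1 CPM in YAP OE, with -0.29 on overexpression and -0.02 on knockdown. Its call was lost in limma-voom and on leaving out 10 of the 12 libraries, all but CTR OE replicate 3 and YAP OE replicate 3, the sum staying between -0.34 and -0.27.

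Trophoblast factors and simple keratins, 14 genes tested, had a median sum of 0.68, the highest of the lists examined. The members called in edgeR were Krt8, Krt18 and Gata3 (21.4%, against 1.22% of all genes), while DESeq2 called 6 members and limma-voom 4. The list had medians of 0.22 on knockdown and 0.52 on overexpression. Gata3, a trophoblast transcription factor, was low, at 0.176, 0.226 and 0.145 CPM in CTR KD and 0.190, 0.410 and 0.187 CPM in YAP KD. It was at 0.232, 0.225 and 0.398 CPM in CTR OE and at 0.890, 1.21 and 1.02 CPM in YAP OE. The overexpression groups were apart and the knockdown groups overlapped, with a sum of 2.33 (SE 0.488, edgeR adjusted p = 0.0259). Its call was lost without CTR KD replicate 1 or 3, YAP KD replicate 2, CTR OE replicate 1 or 2, or YAP OE replicate 2 or 3 (sums 1.87 to 2.65). Cdx2 rose on overexpression (2.05) with 0.01 on knockdown, and its sum did not pass (edgeR adjusted p = 0.0811). The summed level of the list was 143 to 159 CPM in CTR KD, 183 to 194 in YAP KD, 178 to 195 in CTR OE and 203 to 241 in YAP OE, and Elf5 was too low to test.

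**Figure D4:**
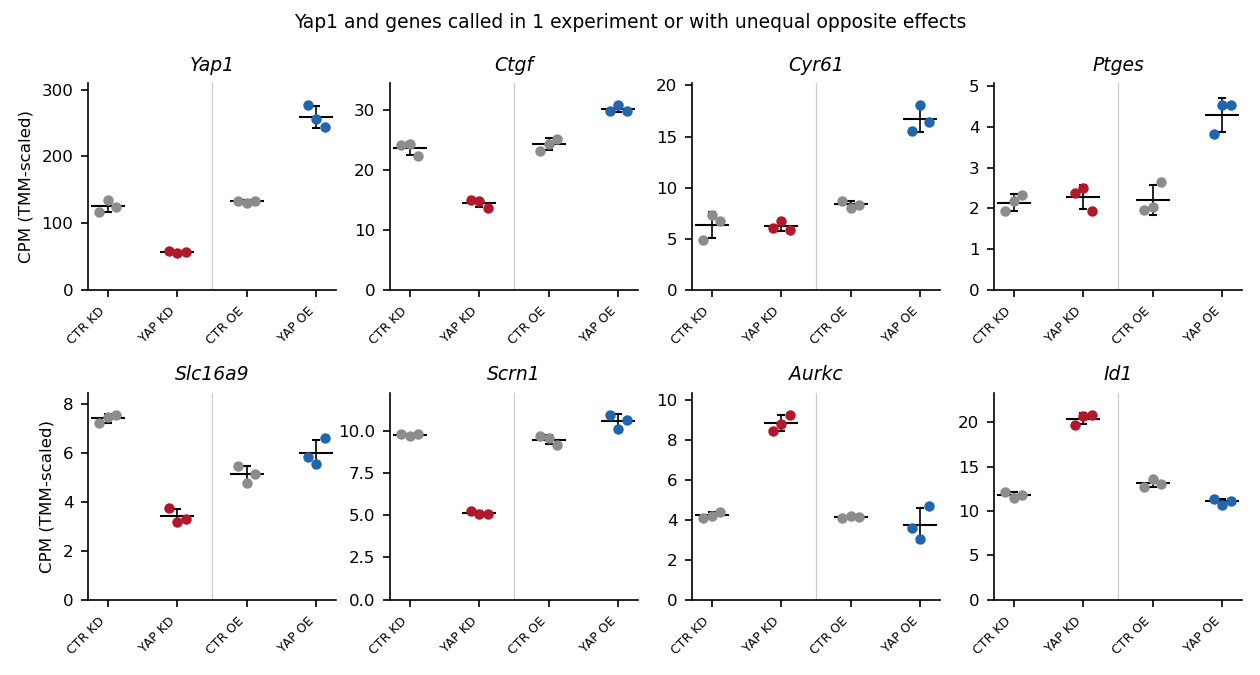
Points are the TMM-scaled CPM of single libraries by group for Yap1 and 7 genes, with the mean and SD of 3 libraries; axes start at 0. Yap1 moves both ways, Cyr61 and Ptges separate on overexpression alone, Aurkc on knockdown alone, and Ctgf and Id1 move further on knockdown than on overexpression.

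Opposite effects of unequal size were found for 13 genes, and in each the knockdown effect was the larger. The sum was negative for 11 and positive for 2, Id1 and Cgnl1. Their median log2 fold change was -0.74 on knockdown and 0.27 on overexpression. The count was 8 without CTR OE replicate 1 and 7 without CTR OE replicate 3. D630045M09Rik (Eprn in RefSeq, the noncoding RNA ephemeron; chromosome 13, 73344665 to 73347384) was at 22.8, 22.4 and 23.4 CPM in CTR KD and at 11.5, 10.6 and 11.9 CPM in YAP KD. It was at 21.5, 22.9 and 22.7 CPM in CTR OE and at 29.7, 27.2 and 28.2 CPM in YAP OE. Controls were alike in both experiments and the YAP groups lay on either side, 1.01 (SE 0.0532) below and 0.34 (SE 0.0488) above on the log2 scale, with a sum of -0.67 (SE 0.0723, edgeR adjusted p = 3.97e-04). Mme, the peptidase neprilysin, fell by 1.01 and rose by 0.38. Id1, an inhibitor of helix-loop-helix factors induced by BMP, was at 12.2, 11.5 and 11.9 CPM in CTR KD, at 19.7, 20.8 and 20.8 CPM in YAP KD, at 12.8, 13.6 and 13.0 CPM in CTR OE and at 11.3, 10.7 and 11.2 CPM in YAP OE. It rose by 0.79 and fell by 0.24, the reverse of ephemeron, with a sum of 0.54 (SE 0.0718, edgeR adjusted p = 0.00115). Id2, of the same family, rose in both, so that on overexpression these relatives moved in opposite directions. Dnmt3l, the cofactor of de novo DNA methylation and here named after its values were seen, went from 273 ± 8.94 to 181 ± 4.40 CPM and from 314 ± 11.4 to 378 ± 15.7 CPM, with a sum of -0.32 (SE 0.0605, edgeR adjusted p = 0.0130). That call was lost without YAP KD replicate 2 (sum -0.30, edgeR adjusted p = 0.0511) and when effects were divided by the change of Yap1 (adjusted p = 0.0731).

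Epithelial junction genes, 30 tested from a list drawn up after values had been seen, held 9 of the called sums (30%, against 1.22% of all genes). Those with a negative sum were Inadl, Bcam, Cdh3, Dsg2, Cldn4 and Crb3, and those with a positive sum Cgnl1, Prkci and Esam. Inadl, the polarity scaffold PATJ, fell by 0.77 (SE 0.0563) on knockdown and rose by 0.27 (SE 0.0521) on overexpression. Bcam, a laminin receptor, fell from 84.8 ± 5.87 to 50.7 ± 2.61 CPM and rose from 93.5 ± 1.96 to 113 ± 2.69 CPM. Cdh3, P-cadherin, and Dsg2, a desmosomal cadherin, fell by 0.58 and 0.43 with values of 0.04 and 0.04 on overexpression. Cldn4, a claudin, fell by 0.55, and its sum of -0.40 lost its call with the effects divided by the change of Yap1 and without YAP KD replicate 3, CTR OE replicate 3 or YAP OE replicate 2 (-0.46 to -0.34). Cgnl1, paracingulin, rose by 0.64 and fell by 0.23, a call for the sum that was lost without CTR OE replicate 3 (0.38) and with the effects divided by the change of Yap1. That of Crb3 (sum -0.46) was lost with upper-quartile factors, in limma-voom, with the effects divided by the change of Yap1 and without any 1 of 10 libraries (-0.56 to -0.39). Prkci, an atypical protein kinase C of cell polarity, rose by 0.35 on knockdown with -0.01 on overexpression. The list thus moved in part down and in part up on knockdown, 10 lower and 3 higher, against 4.43% and 3.95% of all genes. Its median sum was -0.08.

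In the remaining lists the effects were mostly not shown to depart from a mirror. For 18 naive pluripotency, 18 formative and primed, 16 primitive endoderm, 17 germline, 21 p53 target, 23 ATF4, 24 sterol synthesis and 21 interferon-stimulated genes, 0 were called for the sum in edgeR, while DESeq2 called 1 naive pluripotency and 1 sterol synthesis gene. At an unadjusted p under 0.05 each of these lists held from 0 (ATF4) to 5 (interferon-stimulated) genes, against 1706 of all 15049. Over all genes 1.22% were called for the sum, so few or no calls in lists of this size lie near that share. The 2-cell-stage genes, 18 tested with 0 called for the sum in edgeR or DESeq2 and 4 at an unadjusted p under 0.05, had medians of -0.37 on knockdown and 0.51 on overexpression, opposite in sign, with a median sum of 0.19. On overexpression 7 of them were called higher (against 1.38% of all genes) and on knockdown 2 lower (against 4.43%). Interferon-stimulated genes had 6 called higher on knockdown (against 3.95% of all genes), among them Zbp1 and Rsad2, and none on overexpression, with medians of 0.16 and -0.06. Markers of other cell types gave 1 called sum outside the trophoblast list: Nes, of neural progenitors, rose by 0.45 on knockdown with -0.12 on overexpression (sum 0.33, edgeR adjusted p = 0.0109). The summed neuroectoderm markers were at 95.9 to 99.0 CPM in CTR KD, 112 to 117 in YAP KD, 104 to 105 in CTR OE and 92.8 to 96.6 in YAP OE. Mesoderm and fibroblast markers gave 0 of 8 and 0 of 6 in edgeR and in DESeq2, with 1 and 3 at an unadjusted p under 0.05. Ier3 was the 1 immediate early gene of 15 called (sum 0.84), and 18 cytoskeletal SRF targets gave 0 in edgeR and in DESeq2, with 6 at an unadjusted p under 0.05. The call of Ier3 was lost without YAP KD replicate 3, CTR OE replicate 1 or 2, or YAP OE replicate 2 or 3 (0.76 to 0.94).

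**Figure D5:**
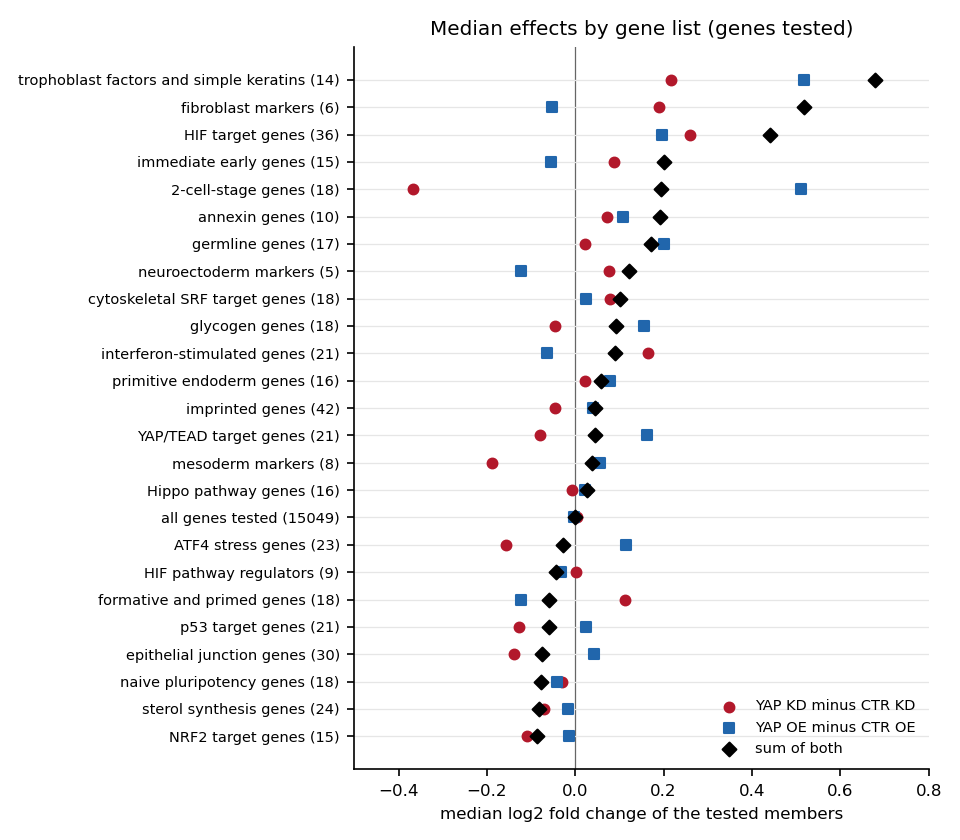
For each gene list (number of genes tested in brackets) the points give the median log2 fold change on knockdown, on overexpression and the median of the sum. HIF targets and trophoblast factors have all 3 medians right of 0. So do annexin, germline, primitive endoderm and cytoskeletal SRF target genes, with smaller median sums. The 2-cell-stage genes have medians on either side, and all genes tested sit at 0.

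Of the 7 genes called for the sum alone, Lars2 (chromosome 9, 123366927 to 123462675), the mitochondrial leucyl-tRNA synthetase, had the largest. It was at 200, 177 and 146 CPM in CTR KD and at 72.2, 154 and 83.5 CPM in YAP KD. It was at 304, 782 and 320 CPM in CTR OE and at 168, 243 and 147 CPM in YAP OE. CTR OE replicate 2 lay above the rest, and the knockdown groups overlapped. The sum was -2.09 (SE 0.464, edgeR adjusted p = 0.0380). The call was lost in DESeq2, under total counts, and without CTR KD replicate 1 or 3, YAP KD replicate 1 or 3, CTR OE replicate 2, or YAP OE replicate 1 or 3, with sums from -2.50 to -1.51. The others were Egln1, Sohlh2 and Suclg2, higher, and Stx3, Nfkbia and Nphs1, lower, with smaller sums.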

How the data were processed

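Total RNA of 12 libraries (4 groups of 3) was sequenced on an Illumina Genome Analyzer. The authors aligned reads with STAR to mm10 and deposited expected counts, TPM and FPKM per gene from RSEM on RefSeq transcripts. Versions and strand setting are not given in the sources used here. RSEM divides reads that match several genes, which leaves counts that are not whole (21.9 to 24.3% of each library's counts lay in genes with such values). TPM and FPKM as deposited by the authors were not used in tests, since count models need counts. Effective lengths served in 1 alternative.

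Expected counts were rounded and fitted in 1 model with edgeR 4.0.16 (R 4.3.3; filterByExpr, TMM, quasi-likelihood F test, Benjamini-Hochberg over 15049 of 24480 genes). Genes were called at an adjusted p under 0.05, and SE is the absolute log2 fold change divided by the square root of F. The fit was tested on simulated data. Total counts per library were 42926246 to 57240706, of which small RNAs took 10.3 to 13.2%. No replicate pair agreed within sampling noise (chi-square of 3.50 to 25.4 for each degree of freedom).

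Named genes had a called sum, a mean of 50 expected counts or more and groups without overlap: the 10 highest and lowest sums in the same direction, the 5 highest and lowest effects in 1 experiment only, and the 5 largest sums of opposite effects, with the called genes of fixed lists. H19 and Gata3 are list members below that mean, and Rpl39l and Dnmt3l were named after their values were seen. Lars2 and the other genes called for the sum alone, apart from the list member Egln1, were named outside these rules. Members and lists were chosen with earlier results of these data known. The lists of imprinted, annexin, epithelial junction, HIF regulator, ESC marker and glycogen genes were added after values had been seen. Lists are described by counts and medians, with no set test. The 12 alternatives covered scaling, filters, DESeq2 1.42.0, limma 3.58.1, small RNAs, length, the Yap1 change and the replicate block, besides leaving out each library. Promoter sequences and gene positions are from RefSeq, GRCm38.p6.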

Additional observations from a re-analysis of the deposited data

How the results depend on the processing

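The number of genes with a called sum (183) and the numbers in each class stayed within 1.5 times under most alternatives. Without a filter beyond 1 count, 24 genes moved in the same direction in both experiments, and with the effects divided by the change of Yap1 8 genes were opposite and unequal. Replicate numbers did not pair the libraries: deviations of same-numbered CTR and YAP libraries correlated at -0.35, -0.22 and 0.012 on knockdown and at 0.036, 0.062 and -0.013 on overexpression. Across the experiments same-numbered controls correlated at -0.19, -0.20 and -0.06 and same-numbered YAP libraries at -0.01, -0.07 and -0.07, although the HIF targets had the same order of replicates in both. Differently numbered libraries of different groups correlated at -0.19 to 0.35, the highest being CTR KD replicate 2 with YAP KD replicate 1. A block by replicate number does not take up such links. With a replicate block within each experiment, which leaves fewer degrees of freedom, 83 genes had a called sum, 7 in the same direction, 65 in YAP KD only, 8 in YAP OE only and 3 opposite and unequal, and 15 HIF targets in place of 24 had a called sum. With a replicate block shared by both experiments 16 were in YAP OE only. Leaving out 1 library at a time gave 123 to 212 genes with a called sum, 6 to 24 in the same direction, 80 to 132 in YAP KD only, 10 to 37 in YAP OE only and 7 to 17 opposite and unequal. For single genes named, 1704 of the values under other settings kept their sign and side of the threshold, 238 kept their sign and lost their call, and 0 turned sign. The Yap1 sum is 0 by construction when divided by its own change and is not counted. Counts of under 1 CPM, as for Gata3 and H19, limit the precision of those sums.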

Other observations

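Glycogen genes, a list of 18 drawn up after values had been seen, held 3 genes with a called sum, all higher (16.7%, against 0.784% of all genes). Pygl, the liver form of glycogen phosphorylase, was at 1.27 ± 0.148 CPM in CTR KD, at 2.03 ± 0.0951 CPM in YAP KD, at 1.08 ± 0.148 CPM in CTR OE and at 1.66 ± 0.330 CPM in YAP OE (mean ± SD, n = 3). Groups were apart in both experiments, with log2 fold changes of 0.67 and 0.62 (edgeR adjusted p = 0.0151 and 0.0729) and a sum of 1.29 (edgeR adjusted p = 0.00864). Pgm2, a phosphoglucomutase, rose on overexpression by 0.49 with 0.28 on knockdown, a sum of 0.77. Gbe1, the branching enzyme, rose on knockdown by 0.39 with 0.16 on overexpression, and its sum of 0.56 lost its call without YAP KD replicate 2 or CTR OE replicate 2 (0.52 to 0.58). Gyg, glycogenin, which primes glycogen, fell by 0.48 on knockdown and rose by 0.55 on overexpression, so that its sum was 0.07. The median sum of the list was 0.09.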
